A study of Mus musculus with 12 samples.

Results

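Cystic and noncystic kidneys with unedited Pkd2 were compared in 6 of the 12 mice of a mouse RNA-seq series: 3 cystic mice (mice 25, 26 and 27) and 3 noncystic mice (mice 19, 20 and 21), taken by their labels, with every gene of the count table considered. All 6 mice were 18 days old, were of the C57BL/6 strain by their labels (C57BL/6 J by the study's methods), carried 1 copy of the RC allele of Pkd1, a hypomorphic allele that makes poorly working polycystin-1, and were Pkd2 +/+. In the noncystic mice (Pkd1_RC in the labels, Pkd1 RC/+ in the study) the other Pkd1 copy was floxed but still intact. The cystic mice (Pkd1F_RC in the labels, Pkd1 RC/- in the study) had the same alleles and in addition Ksp-Cre. This Cre recombinase, driven by the promoter of Cdh16, is active in epithelium of kidney tubules and deletes the floxed copy where it acts. Which tubule segments lost the floxed copy was not measured here. Cre was present in the cystic mice only, so Cre and cystic disease cannot be told apart. Cells in which Cre does not act keep their floxed copy, and whether this held for all cells outside the tubule epithelium was not measured. The other 6 mice of the series carried the same Pkd1 alleles together with Pkd2 Δ17/Δ17 (UTR_DD in the labels), a deletion of a microRNA binding motif from Pkd2, and serve below as a second, separate comparison of 3 cystic with 3 noncystic mice.

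Autosomal dominant polycystic kidney disease follows from mutations in PKD1 or PKD2, whose products polycystin-1 and polycystin-2 form a complex in the primary cilium of tubule cells. When the complex fails, tubule cells divide, lose part of their transport functions and secrete fluid, and the tubule widens into cysts, while macrophages and matrix-producing cells gather around it. The nephron that these cysts replace is built of segments with separate tasks: podocytes filter, the proximal tubule takes back most of the filtrate and makes glucose, the thick ascending limb and distal convoluted tubule take up salt and divalent ions, and the collecting duct adjusts water, sodium and acid.

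Whole kidneys were measured as RNA, with 18800307 to 24453033 counted reads per mouse. Levels are given as CPM, a gene's counts relative to the library total scaled with TMM factors, in the order of mice 19, 20 and 21 (noncystic) and mice 25, 26 and 27 (cystic). A gene was called at a Benjamini-Hochberg adjusted p under 0.05 in the quasi-likelihood test of edgeR. SE stands for the standard error on the log2 scale. Throughout, it was derived from that test, as the size of the log2 value divided by the square root of the F statistic. It is therefore no measure apart from the p-value. Each library came from a separate animal, and p-values measure the spread between them. In whole kidneys, fewer cells of a type and less RNA per cell cannot be told apart, which holds for every cell type named below. Among the genes named with values, Ppp1r1b, Slc34a1, Slc5a2, Umod, Rhbg, Nphs1, Pkm, Hmgcs1, Cdkn1c, Mcm7, Mir17hg, Spp1, Csf1r, Ccn2, Atp12a and Epo share over 10% of their annotated exon length with another gene, Rhbg the most (61.4%), and their counts are uncertain because the strand setting of the counting is not given in the sources used here.

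Several libraries held traces of neighbouring tissue. Mouse 25 had 355 CPM of Alb, the albumin of liver, against 16.4 CPM in mouse 19 and 0.400 to 1.18 CPM in the other 4 mice, and 67.8 CPM of Apoa1, another liver product. Mouse 27 had 9.65 CPM of Cyp11a1 and 16.8 CPM of Hsd3b1, enzymes of steroid synthesis in the adrenal gland, and no other mouse of the 6 exceeded 0.147 and 0.465 CPM of them. The summed level of 8 fat tissue markers was 695 to 1462 CPM in noncystic and 231 to 371 CPM in cystic mice, highest in mouse 20, where Ucp1 of brown fat stood at 261 CPM. Of the fat markers 6 fell and 1 rose, but without mouse 20 only 2 fell. None of the urothelium markers (8 tested) was called, although 5 were lower when mouse 26 was left out. None of the 8 adrenal markers was called in the fit over 12 mice, although 5 were higher when the 6 mice were fitted alone. Mouse 25 had 0.0774 CPM of Upk3a, a plaque protein of that lining, against 7.02 to 30.8 CPM in the others. Markers of red blood cells fell in 6 of 7 cases, and their summed level was 593 to 970 CPM in noncystic and 252 to 354 CPM in cystic mice. The part of these traces in the results below was not tested. The study's methods state equal numbers of males and females, but the labels give no sex. Xist was high in mice 19, 25 and 26 and low in mice 20, 21 and 27.

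**Figure D1:**
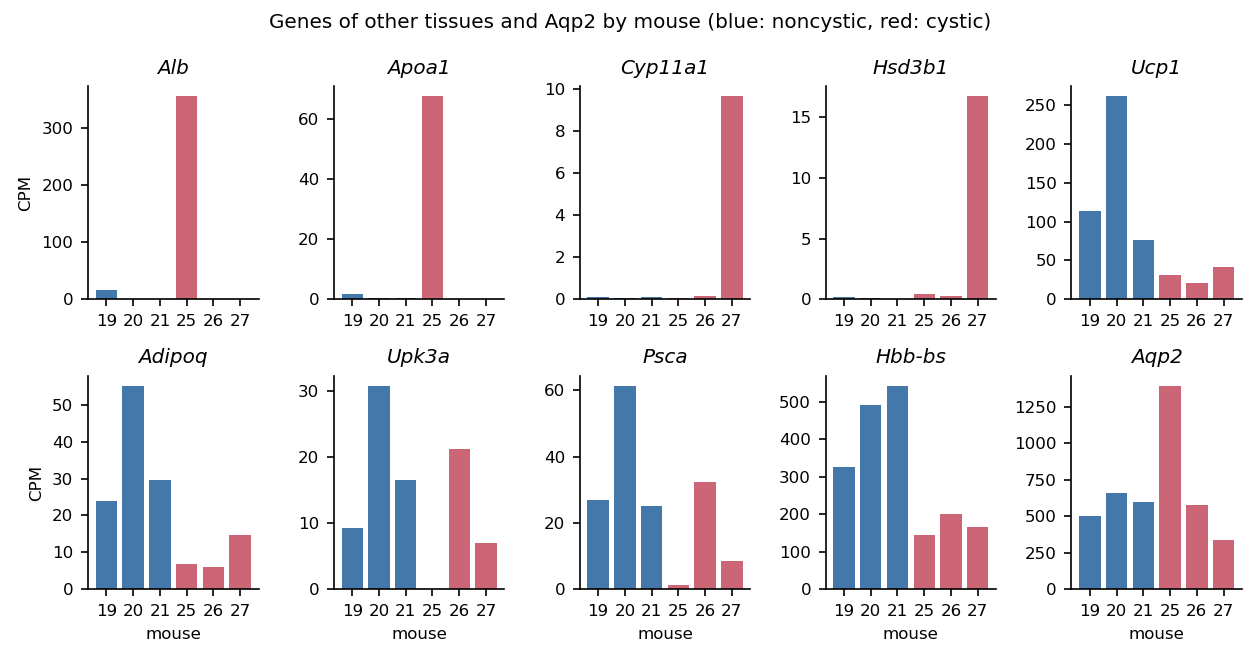
Bars show the level in CPM (vertical axes, each from 0) of 10 genes in each of the 6 mice (horizontal axes), blue for noncystic and red for cystic mice. Alb and Apoa1 of liver stand out in mouse 25, the adrenal genes Cyp11a1 and Hsd3b1 in mouse 27, and the fat genes Ucp1 and Adipoq in mouse 20, while Upk3a and Psca of urothelium are lowest and Aqp2 of the collecting duct is highest in mouse 25.

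Cystic kidneys differed from noncystic kidneys across much of the transcriptome. Of 24642 genes tested, 7665 (31.1%) were called, 4170 (16.9%) higher and 3495 (14.2%) lower in cystic kidneys, and 41.7% of the genes had groups whose ranges were wholly apart. These shares are over all genes tested. The lists below hold mostly protein-coding genes, which were called more often. The counts of each list are therefore to be read against the share of protein-coding genes, given in this paragraph. Library totals in place of TMM factors moved the median gene by 0.158 on the log2 scale and gave 8719 calls, of which 71.7% were higher, against 54.4% with TMM factors, so log2 fold changes below are relative to a scaling that places the median gene near 0. The number of calls beyond a given size was 1461 higher and 1168 lower at 2-fold, 420 and 231 at 4-fold, and 85 and 46 at 16-fold. Protein-coding genes were called in 41.7% of 16920 cases (3955 higher and 3103 lower) and long noncoding genes in 10.7% of 3748. Where at least 10 counts in every mouse were asked, 7339 of 14769 genes were called. The root mean square log2 difference over the 13692 genes at a mean log2CPM of 1 or more was 0.648 to 0.790 for pairs of a cystic with a noncystic animal, 0.297 to 0.310 between noncystic mice and 0.328 to 0.432 between cystic mice.

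Among gene families, solute carriers moved most to the lower side: 154 of 357 fell and 49 rose, with a median log2 fold change of -0.36, and with library totals 130 fell and 65 rose. Collagen genes went the other way, with 19 of 44 higher and 7 lower (20 and 7 with library totals). Of 30 keratins 9 rose and none fell, under both scalings, although the median of the 30 was -0.27. Ribosomal proteins were near the middle, with 4 of 97 higher and 2 lower, but 19 were higher with library totals.

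**Figure D2:**
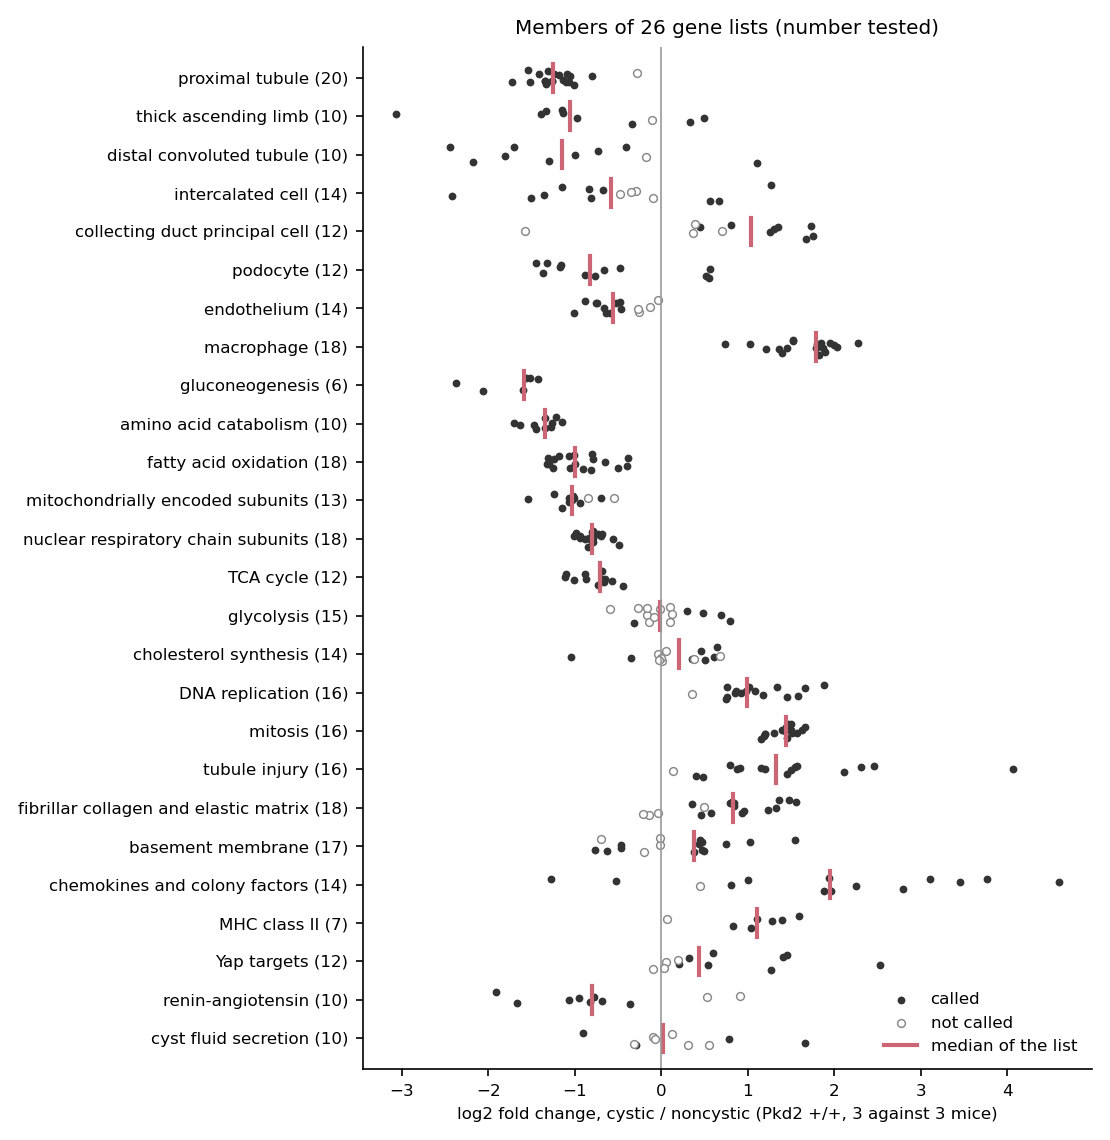
Each point is 1 gene of a list, placed by its log2 fold change between cystic and noncystic kidneys (horizontal axis, 3 against 3 mice); filled points were called, open points were not, and the red line is the median of the list. Proximal tubule (-1.25), gluconeogenesis (-1.58) and amino acid catabolism (-1.34) lie left of 0, and macrophage (1.79), mitosis (1.44) and tubule injury (1.32) lie right of 0.

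Cyp4f39, a fatty acid hydroxylase, led the rises by fold among genes whose groups did not overlap and whose mean log2CPM was 1 or more (ENSMUSG00000061126, chromosome 17, 32452723 to 32493320, forward strand, GRCm38). It stood at 0.363, 0.285 and 0.305 CPM in noncystic and 7.704, 8.62 and 8.19 CPM in cystic mice. Its fold change was 25.2 (log2 fold change 4.65, SE 0.29, edgeR adjusted p = 1.62e-08). Lcn2 (ENSMUSG00000026822, chromosome 2, 32384633 to 32388252, reverse strand, GRCm38) encodes neutrophil gelatinase-associated lipocalin, an iron-binding protein that stressed tubule cells secrete into urine. It was at 11.6, 13.1 and 17.2 CPM in noncystic and 183, 286 and 233 CPM in cystic mice, a 16.7-fold rise (log2 fold change 4.06, SE 0.32, edgeR adjusted p = 1.08e-07). Every cystic mouse exceeded every noncystic mouse by more than the whole range within either group. Lgi2 (4.31), Mybpc2 (4.16), Ctnnd2 (4.14), the transcription factor Egr2 (3.98), the fibril-associated collagen Col12a1 (3.85), S100a14 (3.79), the cytokine Lif (3.67) and Lgals7 (3.67) were also among the 10 largest rises on the log2 scale. Col12a1 stood at 26.6, 26.6 and 22.3 CPM in noncystic and 316, 458 and 311 CPM in cystic mice.

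Among the falls, Egf (ENSMUSG00000028017, chromosome 3, 129677565 to 129755316, reverse strand, GRCm38) encodes epidermal growth factor, which the thick ascending limb and distal convoluted tubule release into urine. It stood at 1796, 1598 and 1860 CPM in noncystic and 267, 167 and 194 CPM in cystic mice. This was an 8.37-fold fall (log2 fold change -3.06, SE 0.16, edgeR adjusted p = 4.76e-09). Klk1, tissue kallikrein of the connecting tubule, was at 2799, 2899 and 2229 CPM in noncystic and 506, 338 and 441 CPM in cystic mice (log2 fold change -2.62, SE 0.15, edgeR adjusted p = 5.4e-09). The kallikrein Klk1b5 fell as well (-2.51). Kallikrein genes are near-identical in part, and their counts are uncertain. Cntn1 (-2.89), Inmt (-2.68), Gucy2g (-2.52) and the phosphatase inhibitor Ppp1r1b (-2.52) also belonged to the 10 largest falls on the log2 scale. Gucy2g was at -3.38 without mouse 26 and at -2.09 without mouse 25. Cidea (-3.18), Thrsp (-2.97) and Cox8b (-2.73) did too, and these 3 are known from fat, whose markers differed between the groups as given above. Without mouse 20 Cox8b was at -2.11. In CPM, the largest gains were those of Spp1, Clu, Col3a1, Npnt, Bcam, Hsd11b2, Tpm1 and Ly6e, and mt-Co1, Gpx3, mt-Cytb, Kap, mt-Nd1 and Pck1 were among the largest losses.

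**Figure D3:**
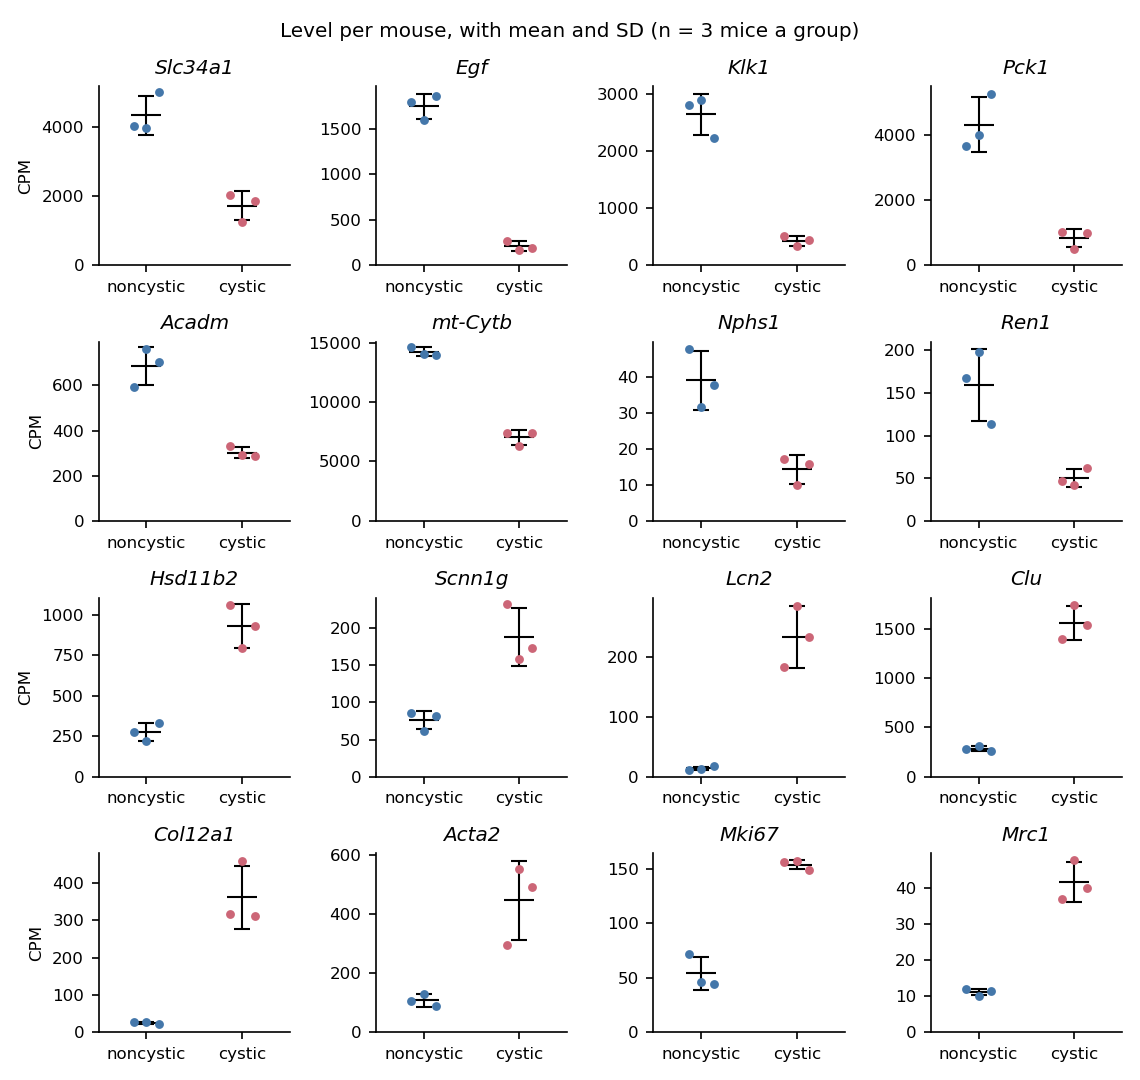
Points are the levels of 16 genes in CPM (vertical axes, from 0) in single mice, 3 noncystic (blue) and 3 cystic (red), with the mean and SD of each group (n = 3 mice). The 16 were picked with results known. In all 16 genes the groups do not overlap, which held for 41.7% of all genes tested. Slc34a1, Egf, Klk1, Pck1, Acadm, mt-Cytb, Nphs1 and Ren1 are lower and Hsd11b2, Scnn1g, Lcn2, Clu, Col12a1, Acta2, Mki67 and Mrc1 higher in cystic kidneys.

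Proximal tubule genes fell almost without exception. Of 20 markers tested 19 were lower and none higher, with a median log2 fold change of -1.25, and the exception, Slco1a1, was near 0 CPM in all 6 mice. Slc34a1, the phosphate transporter of the brush border, stood at 4040, 3994 and 5013 CPM in noncystic and 2050, 1263 and 1869 CPM in cystic mice (log2 fold change -1.33, SE 0.17, edgeR adjusted p = 1.11e-05). Lrp2 (megalin), the endocytic receptor that retrieves filtered protein, was at 1107, 945 and 1251 CPM in noncystic and 560.1, 419 and 399.7 CPM in cystic mice (log2 fold change -1.26, SE 0.15, edgeR adjusted p = 4.88e-06). Its partner Cubn (cubilin) was at 172, 145 and 202 CPM in noncystic and 91.99, 68.05 and 69.4 CPM in cystic mice (log2 fold change -1.18, SE 0.15, edgeR adjusted p = 1.17e-05). The cystic mice lay below the noncystic mice for each of these. Slc5a2, the sodium-glucose transporter of the early proximal tubule, fell by 1.24, Miox, which breaks down inositol, by 1.72, and Kap, the androgen-regulated kidney protein, by 1.52 on the log2 scale. Hnf4a, a nuclear receptor that maintains the proximal tubule programme, was at 521, 519 and 610.1 CPM in noncystic and 330.3, 225 and 268 CPM in cystic mice (log2 fold change -1.003, SE 0.13, edgeR adjusted p = 1.93e-05).

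Short promoter windows are shown for 4 genes of the proximal tubule and of glucose synthesis because they fell together and hold the letters GTTAAT or their reverse complement (in capitals). Sequence, strand and coordinates are from RefSeq (GRCm38.p6), 5′ to 3′ along the gene.
Slc34a1, chr13:55399575-55399604, forward strand: cttgggggtaaaGTTAATttaatggggaaa
Hnf4a, chr2:163547069-163547098, forward strand: gggtgattaaccATTAACtcctacccctcc
Pck1, chr2:173152869-173152898, forward strand: ctcccaacattcATTAACaaccacaagttc
G6pc, chr11:101367483-101367512, forward strand: cagtgtgcccaaGTTAATaattggctctgc
These letters were found on either strand in the promoter (250 bases before to 50 after the start site) of 6.61% of the 14896 tested genes with a promoter in the table, of 13.9% of the 796 genes that fell at least 2-fold and of 6.10% of the 1032 that rose at least 2-fold. Of 16 proximal tubule genes with a promoter 5 held them, and of 5 gluconeogenesis genes 2. A match is a description of the letters in this window and not a binding site. The 7 motifs whose shares were kept were chosen after the shares of more motifs had been seen.

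Thick ascending limb markers were split. Of 10 tested 7 fell and 2 rose. Slc12a1 (NKCC2), the sodium-potassium-chloride transporter that furosemide blocks, stood at 1748, 1557 and 1716 CPM in noncystic and 886, 942 and 735 CPM in cystic mice (log2 fold change -0.97, SE 0.10, edgeR adjusted p = 2.31e-06). The tight junction gene Cldn19 rose (115, 102 and 109 CPM in noncystic and 151, 155 and 154 CPM in cystic mice, log2 fold change 0.50, SE 0.10, edgeR adjusted p = 0.00108). Umod, uromodulin, the most abundant protein of normal urine, was not called: it was at 932, 781 and 1093 CPM in noncystic and 869.6, 1103 and 638 CPM in cystic mice, and the groups overlapped. Distal convoluted tubule markers fell in 8 of 10 cases and rose in 1. Slc12a3 (NCC), the thiazide-sensitive transporter, was at 732, 588 and 960.0 CPM in noncystic and 350.5, 138 and 214 CPM in cystic mice (log2 fold change -1.70, SE 0.27, edgeR adjusted p = 0.000132). Pvalb (parvalbumin) was at 17.9, 12.4 and 19.5 CPM in noncystic and 3.75, 1.91 and 3.44 CPM in cystic mice (log2 fold change -2.44, SE 0.28, edgeR adjusted p = 3.96e-06). The calcium-binding S100g was at 1381, 1334 and 1045 CPM in noncystic and 277, 217 and 339 CPM in cystic mice (log2 fold change -2.17, SE 0.17, edgeR adjusted p = 8.6e-08). The calcium channel Trpv5 went the other way, with 31.6, 20.6 and 35.00 CPM in noncystic and 59.3, 55.8 and 73.6 CPM in cystic mice (log2 fold change 1.11, SE 0.20, edgeR adjusted p = 0.000317). Trpm6, the magnesium channel of the same segment, fell (-0.73).

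Markers of the principal cell of the collecting duct rose instead. Of 12 tested 8 were higher and none lower, with a median of 1.04. Hsd11b2, which protects the mineralocorticoid receptor from cortisol and corticosterone, stood at 274, 221 and 334 CPM in noncystic and 1061, 791 and 932 CPM in cystic mice (log2 fold change 1.75, SE 0.14, edgeR adjusted p = 1.5e-07). Scnn1g, a subunit of the epithelial sodium channel ENaC, was at 85.5, 61.99 and 81.6 CPM in noncystic and 233, 158 and 173 CPM in cystic mice (log2 fold change 1.30, SE 0.14, edgeR adjusted p = 2.64e-06). The transcription factor Elf5 was at 12.9, 17.2 and 12.9 CPM in noncystic and 49.1, 52.6 and 40.4 CPM in cystic mice (log2 fold change 1.73, SE 0.20, edgeR adjusted p = 5.3e-06). All 3 were higher in every cystic mouse. The water channel genes did not follow. Aqp2, the vasopressin-regulated water channel, was at 499, 657 and 597 CPM in noncystic and 1395, 576 and 335 CPM in cystic mice (log2 fold change 0.40, SE 0.36, edgeR adjusted p = 0.462). Mouse 25 lay above and mouse 27 below all noncystic mice, and the value turned to -0.36 without mouse 25. Aqp3 was likewise high in mouse 25 alone (175, 186 and 197 CPM in noncystic and 507, 202 and 197 CPM in cystic mice, log2 fold change 0.70, SE 0.27, edgeR adjusted p = 0.0585).

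Intercalated cells, which move acid and bicarbonate, had 7 lower and 3 higher markers among 14. Slc4a1, the anion exchanger AE1 of the acid-secreting type and of red blood cells, fell to 18.1, 7.69 and 11.7 CPM in the cystic mice from 73.01, 74.5 and 54.1 CPM (log2 fold change -2.41, SE 0.25, edgeR adjusted p = 1.43e-06), and the red blood cell markers fell beside it. Slc26a4 (pendrin) of the base-secreting type was at 106, 76.9 and 113 CPM in noncystic and 52.1, 27.7 and 35.6 CPM in cystic mice (log2 fold change -1.36, SE 0.21, edgeR adjusted p = 0.000106). The proton pump subunit Atp6v1g3 fell by 0.81 on the log2 scale. The ammonia transporter Rhcg was at 315, 289 and 313 CPM in noncystic and 601, 390.5 and 466 CPM in cystic mice (log2 fold change 0.67, SE 0.13, edgeR adjusted p = 0.00063). Its relative Rhbg was at 9.35, 8.21 and 7.07 CPM in noncystic and 3.601, 1.86 and 3.15 CPM in cystic mice (log2 fold change -1.505, SE 0.22, edgeR adjusted p = 6.06e-05). Thus 2 members of 1 transporter family moved in opposite directions by these counts, of which that of Rhbg is uncertain because of its shared exons. Foxi1, the transcription factor of intercalated cells, rose (log2 fold change 0.56, SE 0.14, edgeR adjusted p = 0.006). Without mouse 25 its log2 fold change was 0.33. Dmrt2 rose from 12.5, 11.3 and 8.902 to 33.2, 20.1 and 25.2 CPM (log2 fold change 1.26, SE 0.17, edgeR adjusted p = 2.77e-05).

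Podocyte markers fell in 9 of 12 cases and rose in 3. Nphs1 (nephrin) of the slit diaphragm was at 47.8, 31.5 and 37.7 CPM in noncystic and 17.3, 9.84 and 15.8 CPM in cystic mice (log2 fold change -1.44, SE 0.20, edgeR adjusted p = 2.62e-05). It was lower in every cystic mouse. Podxl (-1.17), Wt1 (-1.16) and Ptpro (-1.37) fell too, while Kirrel (0.56) and Plce1 (0.55) rose. Of 14 endothelial markers 10 fell and none rose, with a median of -0.56. The angiopoietin receptor gene Tek was at 85.9, 95.3 and 95.2 CPM in noncystic and 44.5, 55.6 and 49.8 CPM in cystic mice (log2 fold change -0.88, SE 0.11, edgeR adjusted p = 1.51e-05). Emcn (endomucin), a sialoprotein of capillaries, was at 112, 133 and 106 CPM in noncystic and 51.5, 64.9 and 58.2 CPM in cystic mice (log2 fold change -1.01, SE 0.10, edgeR adjusted p = 7.17e-07). Pecam1 was at 129.5, 163 and 148 CPM in noncystic and 112, 133 and 122 CPM in cystic mice and was not called (log2 fold change -0.26, SE 0.10, edgeR adjusted p = 0.0503).

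**Figure D4:**
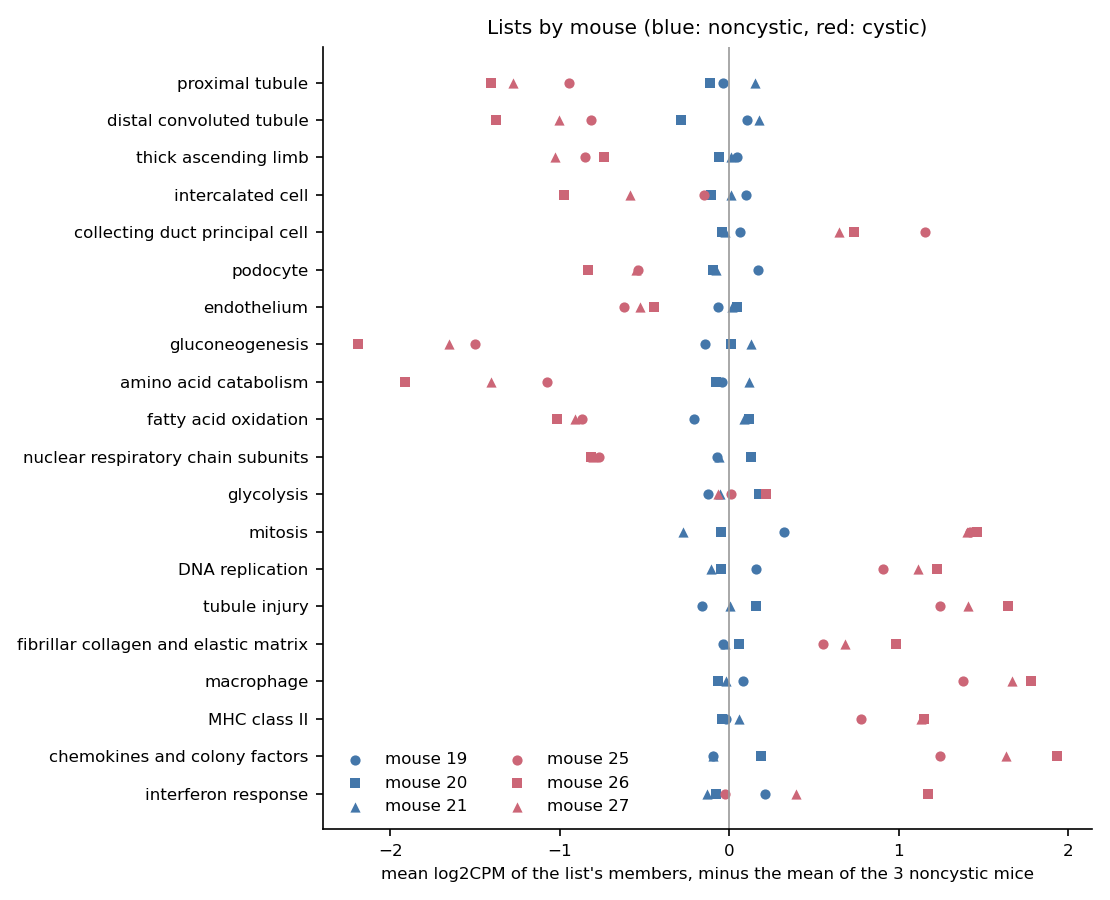
Each point is 1 mouse, placed by the mean log2CPM of a list's members minus the mean of the 3 noncystic mice (horizontal axis); blue marks noncystic and red cystic mice. In 18 of the 20 lists drawn the 3 cystic mice lie wholly to one side of the noncystic mice. The exceptions are glycolysis and interferon response, where the groups overlap. The 20 were picked from 50 lists with results known. Among lists not drawn, the groups also overlap for neutrophil, fat tissue, urothelium, basement membrane, cAMP signalling, nephron transcription factors and Wnt. Mouse 26 lies farthest out in gluconeogenesis, tubule injury and macrophage genes.

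Genes of energy metabolism fell as whole pathways. All 18 fatty acid oxidation genes, all 12 genes of the TCA cycle, all 18 nuclear genes of the respiratory chain, all 10 genes of amino acid catabolism and all 6 of gluconeogenesis were lower and none higher, with medians from -0.71 (TCA cycle) to -1.58 (gluconeogenesis). Proximal tubule markers fell beside them, and how much of these falls came with that segment was not tested. Pck1, the enzyme that commits the tubule to glucose synthesis, stood at 3680, 4028 and 5287 CPM in noncystic and 1028, 509 and 979 CPM in cystic mice (log2 fold change -2.37, SE 0.22, edgeR adjusted p = 4.78e-07). G6pc, which releases free glucose, was at 758, 863 and 774 CPM in noncystic and 242, 113 and 219 CPM in cystic mice (log2 fold change -2.06, SE 0.22, edgeR adjusted p = 2.24e-06). Both were lowest in mouse 26. Acadm, the medium-chain acyl-CoA dehydrogenase, was at 595, 759.7 and 702 CPM in noncystic and 332, 290.4 and 286 CPM in cystic mice (log2 fold change -1.18, SE 0.11, edgeR adjusted p = 3.77e-07). Cpt1a, the gate of fatty acids into mitochondria, was at 326, 304 and 414 CPM in noncystic and 254, 241 and 243 CPM in cystic mice (log2 fold change -0.50, SE 0.10, edgeR adjusted p = 0.000757). The peroxisomal Ehhadh was at 160.2, 188 and 254 CPM in noncystic and 91.7, 66.5 and 82.9 CPM in cystic mice (log2 fold change -1.32, SE 0.16, edgeR adjusted p = 1.02e-05). Among genes of amino acids, Ass1 of arginine synthesis fell by 1.47 and Agxt2 by 1.63 on the log2 scale.

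Within mitochondria, mt-Cytb of complex III was at 14650, 14030 and 13960 CPM in noncystic and 7376, 6326 and 7404 CPM in cystic mice (log2 fold change -1.01, SE 0.12, edgeR adjusted p = 4e-06). mt-Co1 of complex IV was at 25930, 26420 and 26390 CPM in noncystic and 14530, 11810 and 14850 CPM in cystic mice (log2 fold change -0.93, SE 0.12, edgeR adjusted p = 1.2e-05), and no cystic mouse came near the noncystic range. Of 13 mitochondrially encoded genes 11 fell. Of these 13, mt-Atp6, mt-Atp8, mt-Co2, mt-Co3, mt-Nd3 and mt-Nd4l had at most 15.2 CPM in any mouse, far below the others, so their counts are uncertain; they were chosen for this remark after their values were seen. Among nuclear subunits, Ndufs1 of complex I (-0.79), Sdha of complex II (-0.84), Uqcrc1 of complex III (-0.80) and Cox4i1 of complex IV (-0.88) all fell on the log2 scale. Of 10 regulators of mitochondrial metabolism 9 fell and 1 rose. Ppargc1a, the coactivator PGC-1α, stood at 138, 125 and 122 CPM in noncystic and 83.9, 66.7 and 76.98 CPM in cystic mice (log2 fold change -0.76, SE 0.10, edgeR adjusted p = 1.46e-05). Esrra, a nuclear receptor that works with it, was at 201, 202 and 208 CPM in noncystic and 137, 119.8 and 130.0 CPM in cystic mice (log2 fold change -0.66, SE 0.08, edgeR adjusted p = 7.06e-06). Its relative Esrrb was at 69.3, 65.3 and 74.9 CPM in noncystic and 31.6, 38.5 and 28.4 CPM in cystic mice (log2 fold change -1.09, SE 0.12, edgeR adjusted p = 2.07e-06). Mitochondrially encoded genes took 6.28 to 6.51% of all counted reads in noncystic and 3.06 to 3.82% in cystic mice.

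Glycolysis did not move as a pathway. Of 15 genes 4 rose and 1 fell, with a median near 0 (-0.01), and 2 rose when mouse 20 or mouse 21 was left out. Pfkp, the platelet type of phosphofructokinase, was at 95.8, 107 and 93.8 CPM in noncystic and 181, 158 and 138 CPM in cystic mice (log2 fold change 0.69, SE 0.11, edgeR adjusted p = 0.00012). Ldha, which makes lactate, was at 676, 844 and 729 CPM in noncystic and 765, 922 and 724 CPM in cystic mice (log2 fold change 0.10, SE 0.10, edgeR adjusted p = 0.528). Pkm, which makes pyruvate, was at 617, 846 and 621 CPM in noncystic and 688, 918 and 667 CPM in cystic mice (log2 fold change 0.12, SE 0.13, edgeR adjusted p = 0.529). In both the groups overlapped. In cholesterol synthesis 5 of 14 genes rose and 2 fell. Hmgcs1, an early enzyme of the pathway, was at 485, 428 and 452 CPM in noncystic and 240.2, 203 and 218 CPM in cystic mice (log2 fold change -1.04, SE 0.08, edgeR adjusted p = 1.49e-07).

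Cell cycle genes rose together. All 16 mitosis genes were higher, with log2 fold changes from 1.15 to 1.66, and 15 of 16 DNA replication genes were higher and none lower. Mki67, the marker of cycling cells, stood at 71.97, 46.6 and 44.3 CPM in noncystic and 156, 157 and 149 CPM in cystic mice (log2 fold change 1.503, SE 0.18, edgeR adjusted p = 6.74e-06). Top2a, the topoisomerase that untangles chromosomes, was at 45.02, 32.6 and 27.98 CPM in noncystic and 106, 122 and 107 CPM in cystic mice (log2 fold change 1.66, SE 0.20, edgeR adjusted p = 8.71e-06). The mitotic kinase gene Plk1 was at 9.19, 7.76 and 4.88 CPM in noncystic and 23.4, 20.7 and 23.1 CPM in cystic mice (log2 fold change 1.62, SE 0.20, edgeR adjusted p = 8.88e-06). The 3 cystic mice lay close to each other. Among replication genes, the S phase cyclin Ccne1 was at 3.32, 2.395 and 2.24 CPM in noncystic and 7.86, 10.97 and 10.6 CPM in cystic mice (log2 fold change 1.88, SE 0.21, edgeR adjusted p = 2.86e-06). Cdc6, a loader of the helicase, was at 3.95, 3.82 and 4.38 CPM in noncystic and 11.7, 14.1 and 12.7 CPM in cystic mice (log2 fold change 1.66, SE 0.19, edgeR adjusted p = 3.96e-06). Mcm2 of the replicative helicase was at 37.1, 34.6 and 33.01 CPM in noncystic and 69.2, 87.6 and 79.2 CPM in cystic mice (log2 fold change 1.17, SE 0.10, edgeR adjusted p = 2.35e-07). Of 10 D cyclins and CDK inhibitors 5 rose and 1 fell. Cdkn2a, which encodes p16INK4a and p19ARF, was at 0.831, 1.08 and 0.661 CPM in noncystic and 3.14, 3.67 and 3.06 CPM in cystic mice (log2 fold change 1.94, SE 0.30, edgeR adjusted p = 9.98e-05). Cdkn1c (p57), the inhibitor of differentiated podocytes, was at 129, 108 and 89.7 CPM in noncystic and 23.5, 44.3 and 51.5 CPM in cystic mice (log2 fold change -1.46, SE 0.27, edgeR adjusted p = 0.000403).

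Promoter windows of 5 of these genes are shown because the group moved as one and holds known cell cycle elements: TTTGAA, the cell cycle homology region of mitotic genes, or TTTGGCGC, an E2F site of replication genes, in capitals on either strand, from RefSeq (GRCm38.p6), 5′ to 3′ along the gene.
Mki67, chr7:135716460-135716489, reverse strand: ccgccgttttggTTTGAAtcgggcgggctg
Top2a, chr11:99024195-99024224, reverse strand: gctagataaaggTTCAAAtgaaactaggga
Cdk1, chr10:69352913-69352939, reverse strand: taccgcggcgagTTTGAAactgctggc
Mcm6, chr1:128359735-128359764, reverse strand: tgattggacgggTTTGGCGCgaagtagctc
Mcm5, chr8:75109348-75109377, forward strand: ccaagaactttcGCGCCAAAacgtccagcc
TTTGAA was found in 10 of 13 mitosis genes with a promoter in the table and in 1 of 13 replication genes. It was found in 15.9% of all 14896 tested genes with a promoter, in 20.4% of those that rose at least 2-fold and in 17.7% of those that fell at least 2-fold. Of 16 proximal tubule genes, a list that fell, 5 held it. TTTGGCGC was found in 4 of 13 replication genes and in 0.920% of all. The box CCAAT, with which mitotic promoters are also known, was found in 12 of 13 mitosis genes and in 41.8% of all. Its share was 44.2% among genes that rose and 43.6% among genes that fell at least 2-fold. The remarks on matches made for the proximal tubule hold here too.

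Mcm7, a helicase gene of the same list, rose (log2 fold change 0.98, SE 0.11, edgeR adjusted p = 4.23e-06) and carries in its intron the microRNAs miR-106b and miR-93 of the miR-17 family, the family whose binding motif the study edited. Their mature sequences share the seed in capitals (bases 2 to 8).
mmu-miR-106b-5p: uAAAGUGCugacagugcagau
mmu-miR-93-5p: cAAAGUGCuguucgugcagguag
The microRNAs themselves were not measured. Mir17hg, the host transcript of miR-17 and miR-20a, was at 10.5, 8.72 and 6.82 CPM in noncystic and 9.56, 6.22 and 8.95 CPM in cystic mice and overlapped between the groups. Mcm7 and Mir17hg were added after their values were seen.

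Genes of tubule injury rose in 15 of 16 cases, and none fell. Havcr1 (KIM-1), a receptor that injured proximal tubule cells put on their surface, was low throughout at 1.51, 1.198 and 1.22 CPM in noncystic and 5.15, 8.22 and 3.67 CPM in cystic mice (log2 fold change 2.11, SE 0.40, edgeR adjusted p = 0.000629), unlike Lcn2 above. Clu (clusterin), an extracellular chaperone, was at 283, 313 and 258 CPM in noncystic and 1398, 1742 and 1537 CPM in cystic mice (log2 fold change 2.45, SE 0.19, edgeR adjusted p = 1.21e-07) and was among the 8 largest gains in CPM. Spp1 (osteopontin) was at 1371, 1408 and 1207 CPM in noncystic and 2319, 2710 and 1901 CPM in cystic mice (log2 fold change 0.80, SE 0.18, edgeR adjusted p = 0.00218). The keratin gene Krt18 of simple epithelia had a log2 fold change of 2.30. Vcam1, a marker of tubule cells that fail to recover, was at 24.4, 22.01 and 34.8 CPM in noncystic and 28.3, 34.7 and 26.2 CPM in cystic mice and was not called.

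Matrix genes rose in part. Of 18 genes of fibrillar collagens and elastic fibres 14 were higher and none lower. Col1a1 stood at 288, 264 and 275 CPM in noncystic and 668, 862 and 764 CPM in cystic mice (log2 fold change 1.47, SE 0.15, edgeR adjusted p = 1.41e-06). Fn1 (fibronectin) was at 282, 275 and 271 CPM in noncystic and 594, 828 and 655 CPM in cystic mice (log2 fold change 1.33, SE 0.13, edgeR adjusted p = 8.79e-07). Eln (elastin) was at 265, 281 and 208 CPM in noncystic and 878, 677 and 659 CPM in cystic mice (log2 fold change 1.55, SE 0.13, edgeR adjusted p = 1.94e-07). Elastin was highest in mouse 25 and the other genes in mouse 26. Acta2, smooth muscle actin of myofibroblasts and mural cells, was at 105, 132 and 88.4 CPM in noncystic and 298, 554 and 493 CPM in cystic mice (log2 fold change 2.05, SE 0.19, edgeR adjusted p = 5.07e-07). Thy1, a surface protein of fibroblasts, was at 10.5, 12.3 and 5.697 CPM in noncystic and 49.1, 67.5 and 58.9 CPM in cystic mice (log2 fold change 2.63, SE 0.27, edgeR adjusted p = 1.38e-06). Of 14 markers of these cells 5 rose and 2 fell, with a median of 0.03. Pdgfrb, the receptor that marks pericytes and fibroblasts, was at 98.04, 113 and 114 CPM in noncystic and 90.6, 118 and 115 CPM in cystic mice and was not called. The related Pdgfra fell (-0.56).

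Basement membrane genes split by chain. Of 17 tested 9 rose and 4 fell. The chains Col4a1 (0.47) and Col4a2 (0.45), found in all basement membranes, rose. Col4a3, whose product belongs to the glomerular and distal membranes, was at 283, 241 and 258 CPM in noncystic and 158, 174 and 129 CPM in cystic mice (log2 fold change -0.76, SE 0.12, edgeR adjusted p = 7.26e-05). Lama5, the laminin chain of mature membranes, was at 255, 206 and 248 CPM in noncystic and 539, 425 and 485 CPM in cystic mice (log2 fold change 1.03, SE 0.14, edgeR adjusted p = 1.77e-05). Lama1 fell (-0.63). Among 14 proteases and inhibitors 9 rose and 2 fell. Timp1, an inhibitor of metalloproteinases, was at 1.35, 1.48 and 1.17 CPM in noncystic and 14.98, 15.6 and 13.3 CPM in cystic mice (log2 fold change 3.45, SE 0.39, edgeR adjusted p = 3.38e-06). Mmp14, a metalloproteinase of the cell membrane, was at 79.2, 89.1 and 79.8 CPM in noncystic and 167, 191 and 183 CPM in cystic mice (log2 fold change 1.12, SE 0.10, edgeR adjusted p = 3.83e-07). Mmp9, a secreted gelatinase, was at 3.69, 4.05 and 5.901 CPM in noncystic and 0.6195, 0.979 and 0.565 CPM in cystic mice (log2 fold change -2.66, SE 0.34, edgeR adjusted p = 1.47e-05).

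Macrophage markers rose without exception. All 18 were higher, with log2 fold changes from 0.74 to 2.28, and their summed level was 232 to 251 CPM in noncystic and 593 to 824 CPM in cystic mice. Adgre1 (F4/80) stood at 5.66, 5.08 and 6.46 CPM in noncystic and 18.97, 22.6 and 17.9 CPM in cystic mice (log2 fold change 1.79, SE 0.16, edgeR adjusted p = 4.14e-07). The mannose receptor Mrc1, often used for tissue-repair macrophages, was at 12.1, 10.2 and 11.3 CPM in noncystic and 36.9, 47.7 and 39.97 CPM in cystic mice (log2 fold change 1.89, SE 0.14, edgeR adjusted p = 8.6e-08). The growth factor receptor Csf1r was at 52.96, 48.3 and 50.5 CPM in noncystic and 80.1, 87.97 and 84.8 CPM in cystic mice (log2 fold change 0.74, SE 0.08, edgeR adjusted p = 1.54e-06). The ligands of Csf1r rose as well. Csf1 was at 18.6, 14.3 and 15.4 CPM in noncystic and 70.3, 80.8 and 78.9 CPM in cystic mice (log2 fold change 2.25, SE 0.16, edgeR adjusted p = 4.1e-08), and Il34 rose by 1.89 on the log2 scale. Of 14 chemokines and colony factors 11 rose and 2 fell, and 5 rose where at least 10 counts in every mouse were asked, which removed the rarest of them. Ccl2, which draws monocytes, was at 0.467, 0.399 and 0.458 CPM in noncystic and 2.79, 6.12 and 2.68 CPM in cystic mice (log2 fold change 3.10, SE 0.39, edgeR adjusted p = 1.06e-05). Cxcl12, which holds CXCR4-bearing cells, was at 415, 438 and 472 CPM in noncystic and 166, 216 and 164 CPM in cystic mice (log2 fold change -1.28, SE 0.11, edgeR adjusted p = 2.04e-07).

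Other immune cells left little RNA. Of 12 markers of T and NK cells 5 rose and 1 fell, with a median of 0.79 and 10 of the 12 above 0. Cd3g and Cd2 had the largest called rises of that list. Of 8 B cell markers 1 rose and 2 fell (1 and 0 without mouse 20 or mouse 26). The T cell receptor subunit gene Cd3e was at 0.0519, 0.285 and 0.153 CPM in noncystic and 0.0774, 0.04895 and 0.141 CPM in cystic mice, near the limit of counting. Cd8a fell to 0.503, 0.343 and 0.8004 CPM from 6.18, 3.25 and 4.88 CPM (log2 fold change -3.11, SE 0.33, edgeR adjusted p = 2.12e-06), a level that Cd3e did not share. None of the 7 neutrophil markers tested was called, and their sum was 3.2 to 5.2 CPM.

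Genes of antigen presentation by MHC class II rose in 6 of 7 cases. H2-Ab1 (ENSMUSG00000073421, chromosome 17, 34257689 to 34269419, forward strand, GRCm38) was at 46.01, 43.9 and 51.3 CPM in noncystic and 97.2, 126 and 121 CPM in cystic mice (log2 fold change 1.28, SE 0.15, edgeR adjusted p = 6.18e-06). The invariant chain gene Cd74 was at 57.5, 54.2 and 60.8 CPM in noncystic and 116, 156 and 182 CPM in cystic mice (log2 fold change 1.39, SE 0.18, edgeR adjusted p = 1.44e-05). The master regulator Ciita was at 1.97, 1.88 and 1.98 CPM in noncystic and 4.34, 7.93 and 5.37 CPM in cystic mice (log2 fold change 1.59, SE 0.29, edgeR adjusted p = 0.000376). Complement genes rose in 6 of 12 cases. C3, the central component, was at 22.3, 45.2 and 22.9 CPM in noncystic and 156, 118 and 116 CPM in cystic mice (log2 fold change 2.12, SE 0.36, edgeR adjusted p = 0.000238). C4b of the classical pathway was at 2.08, 3.31 and 1.98 CPM in noncystic and 19.6, 10.1 and 18.2 CPM in cystic mice (log2 fold change 2.71, SE 0.40, edgeR adjusted p = 5.78e-05). Acute phase genes rose in 7 of 13 cases. Itih4, an inhibitor heavy chain of plasma, was at 0.883, 0.285 and 0.0509 CPM in noncystic and 21.3, 3.87 and 9.42 CPM in cystic mice (log2 fold change 4.81, SE 0.79, edgeR adjusted p = 0.000157). Serpina3n, a protease inhibitor, was at 1.04, 1.08 and 0.814 CPM in noncystic and 10.5, 4.85 and 5.42 CPM in cystic mice (log2 fold change 2.82, SE 0.41, edgeR adjusted p = 4.23e-05). Both were highest in mouse 25, the mouse with liver RNA, and the log2 fold change of Itih4 was 4.01 without that mouse and 6.11 without mouse 19. Interferon response genes differed between the cystic mice, with the highest mean in mouse 26. Of 12 genes 5 rose and 1 fell, and 9 rose without mouse 25. Oas1a, a sensor of viral RNA, was at 4.21, 3.25 and 3.41 CPM in noncystic and 10.7, 20.2 and 13.04 CPM in cystic mice (log2 fold change 2.01, SE 0.22, edgeR adjusted p = 2.48e-06). Ifit1, another antiviral gene, was at 9.19, 8.67 and 9.21 CPM in noncystic and 7.01, 26.9 and 10.3 CPM in cystic mice and was not called.

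Genes of growth factors and their receptors changed in part. In the EGF family 5 of 12 genes rose and 1, Egf, fell. Btc (betacellulin), another ligand of the EGF receptor, stood at 10.3, 9.01 and 12.2 CPM in noncystic and 86.3, 62.3 and 67.9 CPM in cystic mice (log2 fold change 2.78, SE 0.18, edgeR adjusted p = 1.8e-08). The heparin-binding ligand gene Hbegf was at 21.9, 23.6 and 21.5 CPM in noncystic and 42.3, 55.6 and 46.2 CPM in cystic mice (log2 fold change 1.11, SE 0.13, edgeR adjusted p = 6.18e-06). The receptor gene Egfr was at 56.6, 49.1 and 54.6 CPM in noncystic and 58.4, 55.6 and 50.95 CPM in cystic mice and was not called. In the TGF-beta and BMP list 8 of 16 rose and 3 fell. Tgfb2, one of the ligands, was at 11.8, 9.41 and 7.53 CPM in noncystic and 39.4, 47.2 and 49.2 CPM in cystic mice (log2 fold change 2.24, SE 0.20, edgeR adjusted p = 3.31e-07). The activin subunit Inhba was at 4.102, 3.42 and 2.44 CPM in noncystic and 7.12, 13.3 and 10.3 CPM in cystic mice (log2 fold change 1.62, SE 0.25, edgeR adjusted p = 9.79e-05). Id1, a target of BMP signalling, fell (-0.73). Of 12 Yap targets and pathway genes 8 rose and none fell. Ankrd1 was at 10.6, 10.8 and 8.597 CPM in noncystic and 44.1, 62.8 and 66.7 CPM in cystic mice (log2 fold change 2.53, SE 0.31, edgeR adjusted p = 7.85e-06). Ccn1 (Cyr61) was at 63.4, 56.7 and 42.1 CPM in noncystic and 153, 156 and 136 CPM in cystic mice (log2 fold change 1.46, SE 0.28, edgeR adjusted p = 0.000677). Ccn2 (CTGF), the target most often used beside them, was at 162, 166 and 141 CPM in noncystic and 206, 144 and 189 CPM in cystic mice and was not called. Myc itself rose to 28.9, 36.1 and 35.3 CPM from 12.8, 16.4 and 15.5 CPM. Of the 12 genes of its list, Myc included, 7 rose (11 with limma-trend and library totals), most of the others by little, Nop56 by 0.46 and Cad by 0.75 on the log2 scale. In the Wnt list 5 of 16 rose and 1 fell, which is not above the 41.7% of protein-coding genes called. The receptor gene Fzd1 was at 122, 123 and 125 CPM in noncystic and 363, 377 and 366 CPM in cystic mice (log2 fold change 1.57, SE 0.10, edgeR adjusted p = 2.05e-08). The ligand gene Wnt7b was at 34.4, 51.1 and 28.8 CPM in noncystic and 72.1, 111 and 87.01 CPM in cystic mice (log2 fold change 1.24, SE 0.19, edgeR adjusted p = 6.61e-05). The common target Axin2 was at 10.3, 15.8 and 8.09 CPM in noncystic and 10.96, 17.2 and 12.6 CPM in cystic mice and was not called.

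Genes of cAMP signalling, which drives fluid secretion by cysts, moved both ways: 4 of 16 rose and 5 fell, and 2 rose and 3 fell without mouse 27. The immediate early gene Fos was at 3.32, 4.505 and 6.41 CPM in noncystic and 21.8, 14.2 and 16.9 CPM in cystic mice (log2 fold change 1.89, SE 0.48, edgeR adjusted p = 0.00579). The clock gene Per1, also a Creb target, fell (-0.68). Of 10 genes of cyst fluid secretion 2 rose and 2 fell, near the 41.7% of protein-coding genes called. Cftr, the chloride channel of cyst fluid, was at 4.88, 5.36 and 6.46 CPM in noncystic and 4.96, 5.04 and 5.603 CPM in cystic mice (log2 fold change -0.10, SE 0.20, edgeR adjusted p = 0.768) and was not called. The proton-potassium pump gene Atp12a was at 22.4, 13.5 and 23.04 CPM in noncystic and 80.4, 51.3 and 54.7 CPM in cystic mice (log2 fold change 1.66, SE 0.18, edgeR adjusted p = 2.6e-06).

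Hypoxia and renin genes were lower. Of 12 genes of the hypoxia list 8 fell and 1 rose. Epo, erythropoietin of interstitial cells, stood at 4.31, 5.82 and 8.55 CPM in noncystic and 0.232, 0 and 0.0471 CPM in cystic mice (edgeR adjusted p = 4.4e-05). The fall is given without a fold change because the cystic libraries held 6, 0 and 1 reads. Car9 fell (-1.32) and Egln3 rose (1.01). In the renin-angiotensin list 8 of 10 genes fell and none rose. Ren1, renin of the afferent arteriole, was at 167, 198 and 114 CPM in noncystic and 46.3, 42.6 and 62.1 CPM in cystic mice (log2 fold change -1.66, SE 0.23, edgeR adjusted p = 2.65e-05). Of 14 antioxidant genes 9 fell and 2 rose. Gpx3, the glutathione peroxidase that the proximal tubule secretes into plasma, was at 13220, 14930 and 16810 CPM in noncystic and 6272, 4411 and 6748 CPM in cystic mice (log2 fold change -1.37, SE 0.16, edgeR adjusted p = 6.76e-06). Gsta2, a glutathione transferase, was at 289, 322 and 301 CPM in noncystic and 82.5, 73.97 and 90.2 CPM in cystic mice (log2 fold change -1.89, SE 0.11, edgeR adjusted p = 8e-09). The quinone reductase Nqo1 fell (-0.84) and the heme oxygenase Hmox1 rose (0.91). In the unfolded protein and stress list 5 of 12 rose and 3 fell. The stress-induced transcription factor Atf3 was at 3.998, 4.28 and 6.003 CPM in noncystic and 11.4, 17.2 and 14.4 CPM in cystic mice (log2 fold change 1.59, SE 0.23, edgeR adjusted p = 4.55e-05). Herpud1, which helps degrade misfolded proteins, was at 356, 306 and 391 CPM in noncystic and 179, 112 and 149 CPM in cystic mice (log2 fold change -1.25, SE 0.15, edgeR adjusted p = 7.22e-06). The chaperone gene Hspa5 was at 926, 854 and 931 CPM in noncystic and 756, 774 and 761 CPM in cystic mice and was not called.

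Of 16 genes of cystic disease and the cilium 5 rose and none fell (9 rose with library totals). With TMM factors this is not above the 41.7% of protein-coding genes called. Bicc1, an RNA-binding protein whose loss causes cysts, was at 214, 190.2 and 217 CPM in noncystic and 388, 452 and 410.5 CPM in cystic mice (log2 fold change 1.01, SE 0.08, edgeR adjusted p = 1.47e-07). Pkhd1, the gene of recessive polycystic disease, was at 155, 116 and 162 CPM in noncystic and 249, 267 and 218 CPM in cystic mice (log2 fold change 0.76, SE 0.11, edgeR adjusted p = 5.11e-05). Both were higher in every cystic mouse. Pkd1 was at 62.7, 50.4 and 65.7 CPM in noncystic and 76.4, 72.1 and 66.01 CPM in cystic mice. Pkd2 was at 217, 194 and 219 CPM in noncystic and 232, 233 and 213 CPM in cystic mice. Neither was called, although both were with library totals. The gene-level count of Pkd1 includes exons outside the floxed part and reads of cells without Cre, so it does not check the deletion, and Pkd1 overlaps Tsc2. Among 16 transcription factors of the nephron 6 rose and 7 fell. Pax2, an early kidney factor, was at 50.2, 57.3 and 63.4 CPM in noncystic and 93.9, 94.3 and 85.5 CPM in cystic mice (log2 fold change 0.68, SE 0.12, edgeR adjusted p = 0.000336). Emx2, which the collecting system needs to form, was at 44.5, 40.3 and 44.97 CPM in noncystic and 68.9, 64.2 and 76.5 CPM in cystic mice (log2 fold change 0.69, SE 0.10, edgeR adjusted p = 5.61e-05). Maf of the proximal tubule was at 259.9, 262 and 256 CPM in noncystic and 132, 101 and 132 CPM in cystic mice (log2 fold change -1.09, SE 0.13, edgeR adjusted p = 8.66e-06), and Cited1 of nephron progenitors fell (-1.30).

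The same contrast in the 6 Pkd2 Δ17/Δ17 mice, which share no sample with the 6 above, gave 5679 calls, 3164 (12.8%) of the genes higher and 2515 (10.2%) lower. Of the 4170 genes that were higher with Pkd2 +/+, 2657 were also called higher there (63.7% of the one list and 84.0% of the other), and of the 3495 lower genes 2170 were called lower (62.1% and 86.3%). The median log2 fold change was 0.72 against 0.50 for the higher and -0.74 against -0.48 for the lower genes, the larger size belonging to the comparison in which the genes were called. Across 13692 genes the log2 fold changes had a Pearson r of 0.90, where genes are not independent of each other and the libraries were made in the same study. The proximal tubule list had 18 of 20 genes lower there (median -1.08), gluconeogenesis 6 of 6, mitosis 16 of 16 higher (median 1.37) and macrophage 17 of 18 higher (median 1.13). Adrenal markers were called higher there in 6 of 8 cases (median 6.80), and with Pkd2 +/+ none was called (median 5.02). Of the 8 fat markers 4 fell and 1 rose there. The part of neighbouring tissue in that comparison was not tested. The thick ascending limb list had a median of -0.23 there against -1.05 here, and the renin-angiotensin list -0.23 against -0.80, and no test was made of these list differences. The difference between the contrasts was called for 3 of 24642 genes (0.0122%), while 2053 had an unadjusted p under 0.05 in the same edgeR test. One of the 3 was H2-Ab1 of MHC class II. With Pkd2 Δ17/Δ17 none of the 7 genes of that list rose and 1 fell, with a median of -0.11, and within the list the difference was called for H2-Ab1 only. The call of H2-Ab1 was kept without mouse 25, 26 or 30 and lost without any one of the other 9 mice, with the difference between 1.30 and 1.73 throughout.

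**Figure D5:**
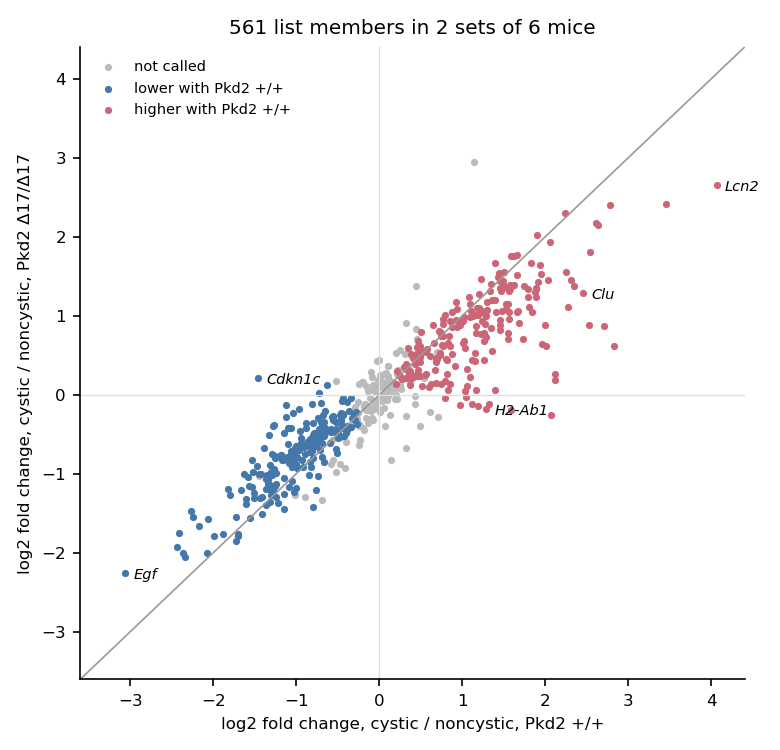
Each point is 1 of 561 list members at a mean log2CPM of 1 or more, placed by its log2 fold change between cystic and noncystic kidneys with Pkd2 +/+ (horizontal axis) and with Pkd2 Δ17/Δ17 (vertical axis); red and blue mark genes called higher and lower with Pkd2 +/+. Most points lie along the line of equal change, Lcn2 (4.06 and 2.65) and Egf (-3.06 and -2.26) at its ends, and H2-Ab1 (1.28 and -0.18) and Cdkn1c (-1.46 and 0.21) lie off it.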

How the data were processed

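Whole-kidney RNA of 12 mice was sequenced, with 3 mice in each of 4 groups. The authors deposited raw, whole-number read counts per gene for 54532 genes. By the study's methods and the submitters' processing notes, RNA was extracted with miRNeasy, libraries were made by Genewiz, reads were trimmed with Trim Galore 0.6.3 and counted with STAR 2.5.3a (GeneCounts) on GRCm38 with Ensembl annotation, and which strand column was kept is not given in the sources used here. Totals were 18800307 to 24453033 counts per mouse, and 343 genes without a name held 0.0199 to 0.0254% of them and stayed in the fit by their identifier. Replicates differed beyond counting noise, so each mouse counted once.

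Counts were tested as deposited with edgeR 4.0.16 (R 4.3.3): TMM factors, 1 mean per group over the 12 mice (8 residual degrees of freedom), a minimum mean log2CPM of -3 (24642 genes, prior count 2), the quasi-likelihood test for each contrast and Benjamini-Hochberg adjustment over all genes tested, called under 0.05. The median standard error was 0.11 on the log2 scale over the 13692 genes at a mean log2CPM of 1 or more. Library totals, DESeq2 (1.42.0) size factors, the DESeq2 Wald test, limma-trend (limma 3.58.1) with library totals as in the study, other filters, thresholds and sample sets were tried as alternatives. The scripts were tested on simulated data, where all of the tools made more false calls than the nominal share and missed many of the changed genes.

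The 50 gene lists and the genes named were chosen with earlier results of these data known. Named were the 10 rises and 10 falls with the largest log2 fold change among called genes at a mean log2CPM of 1 or more, a symbol other than Gm or Rik and no overlap between groups; the 8 rises and 8 falls largest in CPM; the first 4 members of each list and its 2 largest called rises and falls; Pkd1, Pkd2, Myc, Yap1, Creb1, Mettl3 and Mrc1; and the called genes of the difference between contrasts with the smallest p. Not every gene so named is described, and some are not reported here. Alb, Apoa1, Hsd3b1, Xist, Krt18, Col4a2, Il34, Mcm7 and Mir17hg were added after their values were seen. Gene positions are from GENCODE M21 (GRCm38), which matched 54495 identifiers, and sequences are from RefSeq.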

Additional observations from a re-analysis of the deposited data

Results flagged for a closer look

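For 3 genes the change with cystic disease differed between Pkd2 +/+ and Pkd2 Δ17/Δ17 mice by an interaction test in edgeR's quasi-likelihood model with Benjamini-Hochberg adjustment over 24642 genes. H2-Ab1, an MHC class II chain, had log2 fold changes of 1.28 and -0.18, a difference of 1.46 (standard error 0.22, adjusted p = 0.0359). The Pkd2 Δ17/Δ17 mice stood at 47.7, 47.3 and 46.1 CPM when noncystic and at 37.4, 31.6 and 55.6 CPM when cystic, so those groups overlapped, while the cystic Pkd2 +/+ mice stood at 97.2, 126 and 121 CPM. Ppp1r1a, protein phosphatase inhibitor 1, fell in both genotypes, by 1.94 with Pkd2 +/+ and by 1.02 with Pkd2 Δ17/Δ17, a difference of -0.92 (standard error 0.13, adjusted p = 0.0359). Its cystic levels were 103, 94.7 and 93.0 CPM with Pkd2 +/+ and 152, 183 and 173 CPM with Pkd2 Δ17/Δ17. Wfdc15b, which encodes a protein with a whey acidic protein domain, fell by 1.65 and by 0.69, a difference of -0.96 (standard error 0.14, adjusted p = 0.0359), with cystic levels of 54.1, 54.3 and 52.4 CPM against 89.4, 91.0 and 105 CPM. None of the 3 differences was called when mouse 19, 23, 24, 27 or 29 was left out. No cause was tested.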

How the results depend on the processing

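No paired analysis was made because the labels do not pair mice of one group with mice of another. The 144 called genes checked kept their direction and call in all 2008 values under the other fits, filters, scalings and sets of mice. Many of them were named because they were called with large changes, so this stability follows in part from the choice. Ucp1, Ppp1r1a and Wfdc15b were not among them, and the calls of the fat list moved as given below. The stricter thresholds below were applied to counts of genes only, and some named genes changed by less than 2-fold. Of 251 values of 18 genes that were not called, 203 stayed as they were, 25 passed the threshold (8 genes) and 23 changed sign (10 genes). With library totals the log2 fold change was 0.0518 for Umod, 0.0843 for Mir17hg, 0.152 for Pdgfrb and 0.0599 for Cftr, and with limma-trend 0.0321, 0.0782, 0.146 and 0.0660 in the same order. With Xist as a covariate Pdgfrb was at 0.0675. Leaving out 1 mouse gave ranges that crossed 0: Umod -0.311 to 0.0762, Aqp2 -0.360 to 0.754, Ldha -0.0101 to 0.170, Pkm -0.0366 to 0.268, Mir17hg -0.240 to 0.0912, Vcam1 -0.0183 to 0.342, Pdgfrb -0.0747 to 0.105, Ifit1 -0.0636 to 1.04, Egfr -0.0401 to 0.0928 and Cftr -0.186 to 0.00492. The mouse whose loss turned the sign was 25 for Aqp2, 26 for Ldha, Pkm and Ifit1, 20 for Vcam1, 25 or 20 for Egfr, 21 for Cftr, 27 or 21 for Umod, 25 or 21 for Pdgfrb and 26 or 19 for Mir17hg.

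The count of 7665 calls with Pkd2 +/+ stayed between 6479 and 7225 without 1 mouse of the 6. It was 2629 (1461 higher, 1168 lower) at 2-fold or more and 2335 (1303 higher, 1032 lower) when tested against a fold change of 1.5, and limma-trend with library totals called 6309 genes higher. With Pkd2 Δ17/Δ17, 3761 genes were called at an adjusted p under 0.01, 1515 at 2-fold or more and 1067 against a fold change of 1.5. The 3 calls of the difference between the contrasts moved most: 106 with DESeq2, 13 with the Xist covariate, 12 with at least 10 counts in every mouse, 8 with library totals, 9 with limma-trend, 566 without a cutoff on low counts, 1 at 2-fold or more, 0 at an adjusted p under 0.01 in edgeR (2053 at an unadjusted p under 0.05) and 0 against a fold change of 1.5 in edgeR (680 unadjusted). Without 1 mouse it was 0 to 60 in edgeR, 0 without mouse 19, 23, 24, 27 or 29, with 1720 to 1851 at an unadjusted p under 0.05 there.

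Counts of higher and lower list members that moved elsewhere were 2 and 0 for T and NK cells with at least 10 counts, 4 and 0 for the adrenal gland with the Xist covariate, 5 and 0 with only the groups compared and 7 and 0 without a cutoff, 1 and 2 for fat with DESeq2 and 1 and 1 with limma-trend, 0 and 5 for urothelium without a cutoff, and 8 and 2 for the interferon response without a cutoff. The cause of these changes was not tested. Genes under about 1 CPM, such as Cd3e, are limited by depth.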
